A study of Rattus norvegicus with 8 samples.

Results

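Complement is a set of plasma proteins and cell surface regulators that mark particles and cells for removal. The transcripts described here are those of 9 rat genes of this system, C1r, C1s, C2, C3, C4a, C4b, Cfb, Cfi and Serping1. They were taken from a list of symbols chosen with earlier results of these data known, so counts set against all tests are a description. A probe belonged to them when its transcript accession was that of one of these genes in the RefSeq table of the rat. All 9 genes had a probe, 11 probes in all, out of 16678 named genes with a probe on the array. RNA came from vessels of 4 male hypertensive rats and 4 male control rats, with 1 Agilent 1-colour array per animal. The strain entry reads Wistar-Kyoto, a normotensive laboratory strain, for both groups, while the title of the series names Wistar-Kyoto for the controls alone, and which strain the hypertensive animals were cannot be told from these labels. Age, treatment and the vessel taken are not given in the sources used here, and no transgene, deletion or agent is named for either group.

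Complement starts along 3 routes. In the classical route the recognition protein C1q activates the proteases C1r and C1s, which cut C4 and C2, and in the lectin route ficolins and mannose-binding lectins bring other proteases to the same substrates. In the alternative route factor B joins C3b. All routes meet at C3, whose fragment C3b binds covalently to surfaces and leads to the membrane attack complex. Serping1, the C1 inhibitor, blocks C1r and C1s, and factor I, encoded by Cfi, cuts C3b and C4b with the help of cofactors. The liver makes most plasma complement, and fibroblasts, macrophages, endothelium and fat cells make some of these proteins locally.

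Values are log2 of the processed signal minus the array's 75th percentile, so that 0 is the signal of the probe at that percentile, and the level of a probe cannot be compared with that of another probe. Changes are hypertensive minus control, with the standard error of the limma fit after ± and the Benjamini-Hochberg adjusted p over 24552 tests (1 per named gene or unnamed probe), and a change is called past an adjusted p of 0.05. The 75th percentile was 357 to 478 units in the hypertensive arrays and 405 to 503 units in the control arrays. All 8 smooth muscle markers and all 7 endothelial markers with a probe were well above background on all 8 arrays. Hypertensive replicate 4 stood apart in its white fat cell genes, with a mean over 11 genes of 2.04 (centred log2), while hypertensive replicates 1 to 3 had -0.95 to 0.06 and the controls -0.59 to 0.26. The values for C3, Cfd, C6, C1qa and Fasn, and the calls of complement and macrophage genes that this array changed, are given with and without it. The number of arrays limits the precision, and in whole tissue fewer cells of a type and less RNA per cell cannot be told apart.

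All 9 genes were well above background on all 8 arrays. C4a and C4b, which encode the C4 protein, fell in hypertensive vessels, to 0.42 and 0.53 of the control level, and none of the 9 rose past the threshold. Across all tests 4.53% were called, 2.61% as higher and 1.91% as lower, against 2 of these 9 genes, both lower. Among named genes 4.18% were called. A transcript of C4a or C4b could bind the probe of the other, so these 2 calls may not be separate. An unadjusted p under 0.05 was found for 3 of the 9, against 20.3% of all tests. For 3 of the 9 (C4a, C4b and Cfi) the hypertensive and control ranges were separate, against 13.6% of all tests. The median change of the 9 genes was -0.22 and that of all tests 0.04.

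**Figure D1:**
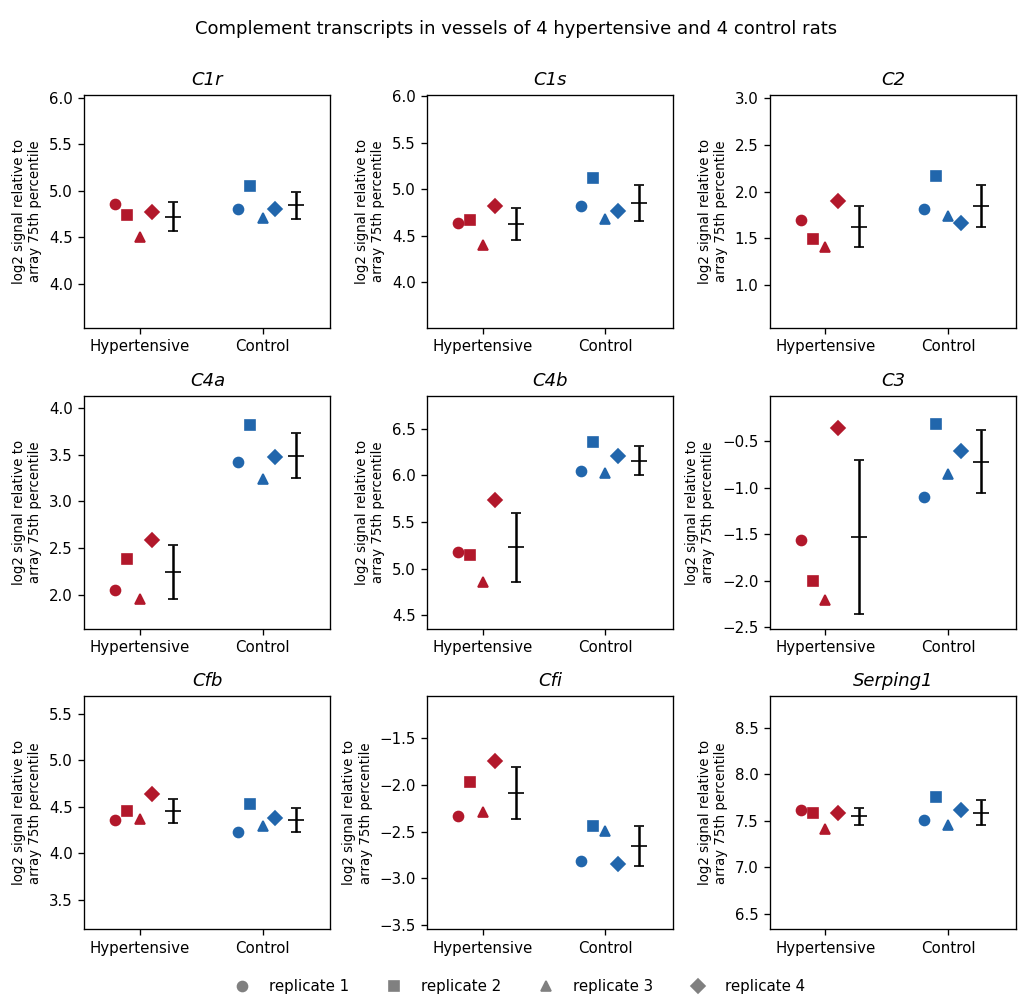
Level of each of the 9 complement transcripts on each array (y axis, log2 signal relative to the array's 75th percentile, the same span of 2.5 in every panel), hypertensive arrays on the left and control arrays on the right, with the group mean and SD (n = 4) as black bars. C4a and C4b lie lower in all 4 hypertensive arrays, Cfi lies higher, and hypertensive replicate 4 has the highest C3 level of its group.

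C4 is the substrate of C1s and of the lectin route proteases, and its larger fragment binds covalently to surfaces and joins C2 to form the convertase that cuts C3. The C4a level was 2.05, 2.38, 1.95 and 2.58 in hypertensive replicates 1 to 4, against 3.42, 3.82, 3.24 and 3.48 in control replicates 1 to 4. Every hypertensive array lay below every control array, with a gap of 0.65 between the highest hypertensive and the lowest control value. The change was -1.25 ± 0.17, a 2.37-fold lower level (adjusted p = 0.0046). By unadjusted p it ranked 269 among all tests.

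The C4b level, on the brighter of its 2 probes, was 5.18, 5.15, 4.85 and 5.74 in hypertensive replicates 1 to 4, against 6.05, 6.36, 6.02 and 6.21 in control replicates 1 to 4. The groups did not overlap here either, and hypertensive replicate 4 came closest to the controls. The change was -0.93 ± 0.18 (1.90-fold lower, adjusted p = 0.023). The dimmer C4b probe read 2.31, 2.55, 2.18 and 2.91 in the hypertensive arrays, against 3.53, 3.89, 3.40 and 3.53 in the control arrays, a change of -1.10 ± 0.17. Fitted among all kept probes, that probe had an adjusted p of 0.0090. The C4a call held without any single array, with changes of -1.36 to -1.14, while that of C4b was lost without hypertensive replicate 1 or 2 or control replicate 1, 2 or 4 (adjusted p of 0.056 to 0.067).

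Because C4a and C4b are close copies, a transcript of one could bind the probe of the other, and which of the genes fell cannot be told from these probes. The RefSeq table also lists the symbol C4b among the older names of C4a. Within the groups, the deviations of the C4a probe from the group mean followed those of the dimmer C4b probe with r = 0.98 and those of the brighter one with r = 0.85 over the 8 arrays, which share their scaling. The change of the C4a probe was lower than that of the brighter C4b probe by 0.32 on the log2 scale and than that of the dimmer one by 0.15. Neither of these differences, nor that of 0.17 between the C4b probes, passed a two-sided exact permutation test after adjustment over the 3 pairs (p = 0.057, 0.029 and 0.11, adjusted 0.086, 0.086 and 0.11, where 0.029 is the smallest p this design allows). A pair that alone reaches that smallest p cannot pass after this adjustment, so the test cannot show that the probes changed alike. C4a minus the dimmer C4b probe reached it, at -0.33 to -0.17 in hypertensive and -0.16 to -0.05 in control arrays.

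**Figure D2:**
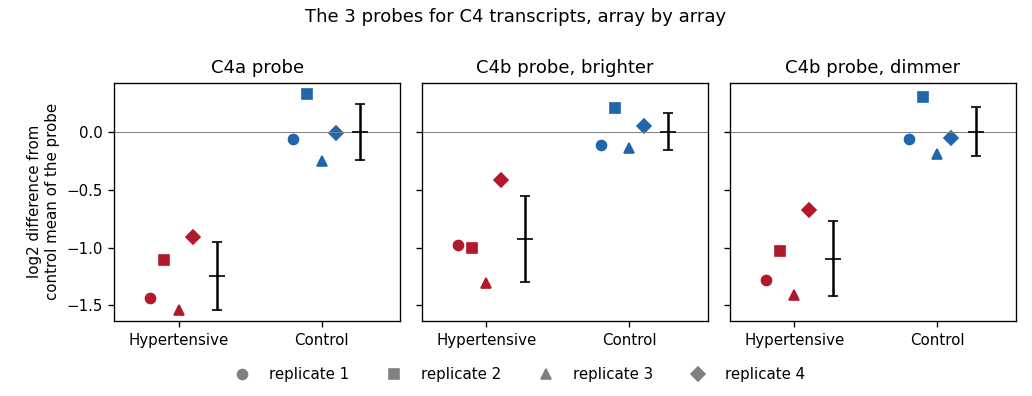
The 3 probes for C4 transcripts, each shown as the log2 difference of every array from the control mean of that probe (y axis), hypertensive arrays on the left and control arrays on the right, with mean and SD (n = 4). All 3 probes read lower in each hypertensive array than in any control array, and hypertensive replicate 4 is the highest of its group on each.

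The upstream sequences of C4a and C4b are shown because these were the only members past the threshold and they show how alike the copies are. They are the 250 bases before the annotated transcript start, from RefSeq (GRCr8, plus strand), at chr20:4010107-4010356 for C4a and chr20:4201729-4201978 for C4b. Capitals mark the bases that differ when the sequences are laid side by side without gaps, shifted by 5 bases.
C4a: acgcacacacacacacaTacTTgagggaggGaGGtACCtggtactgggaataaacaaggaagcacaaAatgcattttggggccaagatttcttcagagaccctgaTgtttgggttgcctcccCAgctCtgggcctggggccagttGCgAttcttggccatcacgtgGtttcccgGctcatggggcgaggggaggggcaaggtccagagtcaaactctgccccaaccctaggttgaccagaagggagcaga
C4b: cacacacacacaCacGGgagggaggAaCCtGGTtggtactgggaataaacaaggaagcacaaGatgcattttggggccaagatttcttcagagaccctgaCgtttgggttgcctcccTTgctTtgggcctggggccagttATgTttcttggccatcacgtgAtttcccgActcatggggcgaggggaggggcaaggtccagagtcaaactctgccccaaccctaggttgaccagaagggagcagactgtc

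Of the 245 bases compared, 226 (92.2%) were identical, and 2 of the 19 differences lay in the 100 bases nearest to the C4a start. Both sequences hold the E-box letters CACGTG, which are the same on both strands, starting 90 bases before the C4a start and 95 bases before the C4b start. These letters occur in 5.59% of the 33469 rat promoters of the same length in the table. RefSeq's table held promoters for 5 of the 9 genes (C1r, C3, C4a, C4b and Cfi), and the E-box letters were found in those of C4a and C4b. The STAT motif TTCNNNGAA (7.67% of all promoters) and the letters CCAAT (34.0%), searched on both strands, were found in 0 of the 5. A match is a description of the letters and not a binding site.

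C2, Cfb, C4a and C4b lie in the histocompatibility region, in the order C2, Cfb, C4a, C4b in GRCr8. Between C4a and C4b the annotation has 12 other protein-coding genes, from Cyp21a1 next to C4a to Notch4 next to C4b, and all 12 were measured. None of the 12 passed the threshold, with changes of -0.31 (Gpsm3) to 0.31 (Ager) and adjusted p of 0.11 or more, and the groups did not overlap for 3 of them, against 13.6% of all tests. In a wider stretch, from 15 genes before C2 to 15 after C4b, 38 of 46 other genes were tested. There 1 of the 38 passed, against 4.53% of all tests. This was the class II gene RT1-Bb, named after its values were seen, with a rise of 1.55 ± 0.21 (adjusted p = 0.0041). The other class II genes tested there did not pass, at -0.53 (RT1-DOb) to 0.0052 (RT1-Da). A list of the region held 28 tested genes, all of them among those 38 and with the 12 included, so these counts are not independent. None of the 28 passed the limma threshold. An unadjusted p under 0.05 was found for 11 of the 28, against 20.3% of all tests, and separate groups for 8, against 13.6%. The brightest, Ddah2, was at 0.04 ± 0.08.

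**Figure D3:**
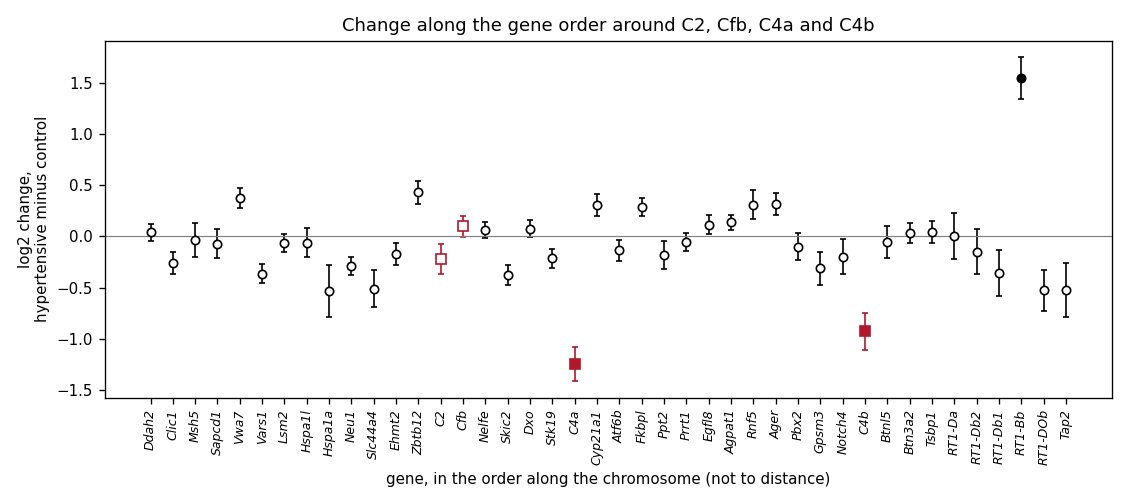
Change of each tested gene (y axis, log2, hypertensive minus control, bars are standard errors of the limma fit) in its order along the chromosome around C2, Cfb, C4a and C4b (x axis, equal steps). Squares are the 4 complement genes and filled symbols passed the threshold, which were C4a, C4b and RT1-Bb, while the 12 genes between C4a and C4b lie between -0.31 and 0.31.

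The proteases that act on C4, and their inhibitor, differed less. C1r, the protease that activates C1s, had levels of 4.86, 4.74, 4.50 and 4.77 in hypertensive arrays, against 4.80, 5.05, 4.71 and 4.81 in control arrays. The groups overlapped, and the change was -0.12 ± 0.11 (adjusted p = 0.57). Its probe is spotted 10 times on each array, and the SD between these spots was 0.016 to 0.048, below the SD between animals of 0.15 in hypertensive and 0.15 in control vessels. C1s, the protease that cuts C4 and C2, read 4.64, 4.67, 4.40 and 4.81 in hypertensive arrays, against 4.82, 5.12, 4.68 and 4.76 in control arrays. These groups overlapped as well, with a change of -0.22 ± 0.13 (adjusted p = 0.37), and -0.23 ± 0.13 on its second probe. Serping1, the inhibitor of both, was level at 7.61, 7.58, 7.41 and 7.58 in hypertensive arrays, against 7.51, 7.76, 7.46 and 7.61 in control arrays. Its change of -0.04 ± 0.09 (adjusted p = 0.84) had the smallest size of the 9, and its sign turned without hypertensive replicate 3 or control replicate 2.

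C2, which supplies the catalytic part of the classical C3 convertase, read 1.69, 1.49, 1.41 and 1.90 in hypertensive arrays, against 1.82, 2.17, 1.74 and 1.66 in control arrays. The groups overlapped, and the change was -0.22 ± 0.15 (adjusted p = 0.43). Cfb, its counterpart in the alternative route, read 4.36, 4.46, 4.37 and 4.64 in hypertensive arrays, against 4.23, 4.53, 4.29 and 4.38 in control arrays. Again the groups overlapped, with a change of 0.10 ± 0.10 (adjusted p = 0.62).

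C3 was the member with the widest spread between hypertensive animals. Its level was -1.56, -2.0, -2.20 and -0.36 in hypertensive replicates 1 to 4, against -1.10, -0.32, -0.86 and -0.61 in control replicates 1 to 4. The first 3 hypertensive arrays lay below all controls, and replicate 4 lay above 3 of the 4 controls. The SD was 0.83 in hypertensive and 0.34 in control vessels. Over all arrays the change was -0.81 ± 0.37 and was not called (adjusted p = 0.27). Without hypertensive replicate 4, the array with the high fat cell signal, it was -1.20 ± 0.21 and was called (adjusted p = 0.020), in a fit that called 6% of all tests. With the mean of the fat cell genes as a covariate it was -1.12 (adjusted p = 0.044). The part of fat tissue in the C3 level was not tested beyond these values. The C3 signal was low, 85.0 to 372 units against the 75th percentiles given above.

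Cfi, the factor I gene, was the member with the largest positive change. Its level was -2.34, -1.97, -2.29 and -1.74 in hypertensive replicates 1 to 4, against -2.82, -2.44, -2.50 and -2.85 in control replicates 1 to 4. All 4 hypertensive arrays lay above all 4 controls, by a margin smaller than the spread within either group. The change was 0.57 ± 0.16 (1.48-fold) and did not pass the threshold (adjusted p = 0.086). It passed with normexp background correction, at 0.39 (adjusted p = 0.042). The Cfi signal was 62.3 to 143 units.

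The members moved up and down together from animal to animal within each group. All 36 pairs of members had a positive correlation of their deviations from the group means over the 8 arrays, from 0.31 (C1r with Cfi) to 0.96 (C3 with C4b), with a median of 0.73. The points of such a correlation share the scaling of each array, so they are a description. Hypertensive replicate 4 was above its group mean for all 9 members and highest of its group for 7, and hypertensive replicate 3 was below for all 9 and lowest for 7. Among controls, replicate 2 was highest for all 9 members. The fat cell genes were high in hypertensive replicate 4 and not in control replicate 2, at 2.04 and -0.21. This pattern of arrays was not particular to the members. In hypertensive replicates 3 and 4 and control replicate 2, the macrophage list mean was -0.28, 0.16 and 0.22. The hepatocyte list mean was -0.34, 0.21 and 0.21, and on both lists these were the lowest, highest and highest values of their groups. The smooth muscle list went the other way, at 0.47, -0.12 and -0.25.

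**Figure D4:**
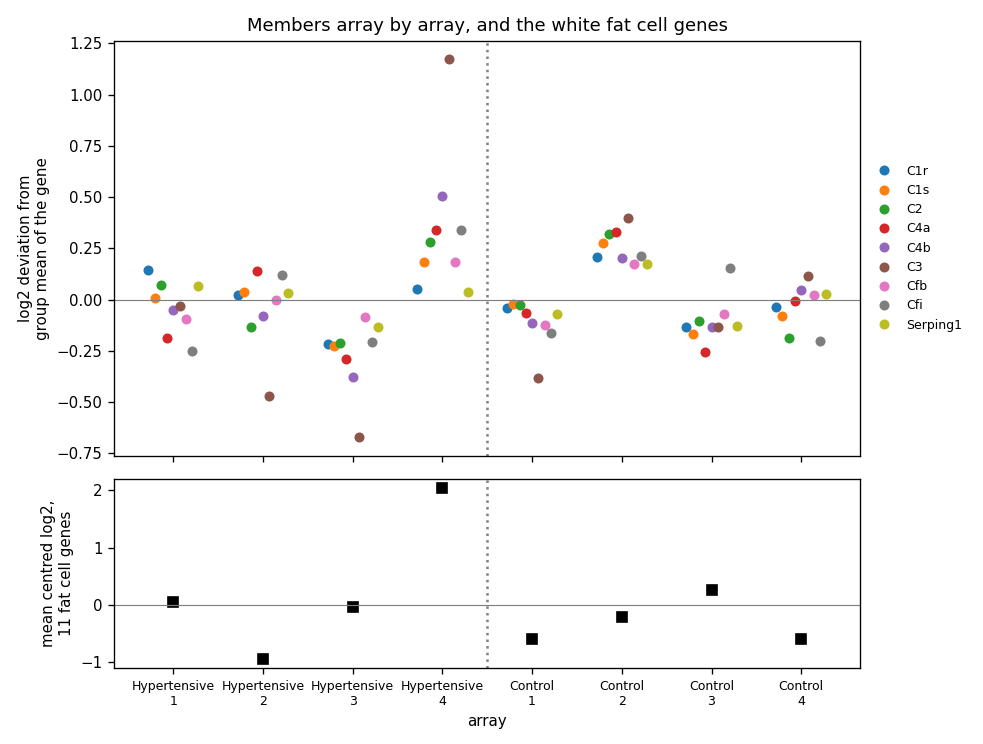
Upper panel, deviation of each member from its group mean on each array (y axis, log2), hypertensive arrays 1 to 4 on the left and control arrays 1 to 4 on the right. Lower panel, mean centred log2 of 11 white fat cell genes on the same arrays. All 9 members lie above 0 in hypertensive replicate 4, where the fat cell genes reach 2.04, and in control replicate 2, where they do not.

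The rest of the pathway was followed with 49 other complement genes, of which 43 had a probe and 27 were well above background often enough to be tested. Of these 27, 2 fell, none rose and 25 did not pass, against 1.91% of all tests lower. The median change was -0.09. The ficolin gene Fcna, a lectin route recognition molecule, read -0.76, -0.65, -0.57 and -0.12 in hypertensive arrays, against 0.14, 0.60, 0.24 and 0.41 in control arrays. Its change was -0.87 ± 0.16 (adjusted p = 0.018). Fcna was not called without hypertensive replicate 2 or without hypertensive replicate 3. Cd59b, a membrane protein that blocks the attack complex, read 2.94, 3.23, 3.38 and 3.41 in hypertensive arrays, against 3.84, 3.95, 4.11 and 4.18 in control arrays. Its change was -0.78 ± 0.13 (adjusted p = 0.011). Hypertensive and control ranges were separate in 4 of the 27 tested genes, against 13.6% of all tests. Fcna, Cd59b and C4bpb were among these 4. C4bpb, named after its values were seen, encodes a chain of the fluid phase protein that binds C4b for factor I. It did not pass, at 1.14 ± 0.27 (adjusted p = 0.054), and was above background on all 4 hypertensive and 2 of 4 control arrays. C4bpb was called higher without control replicate 1 (adjusted p = 0.048), with normexp background correction (0.015) and with array weights (0.039).

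By role, 1 of 8 tested recognition genes fell, against 1.91% of all tests, with the C1q chain genes C1qb at 0.01 ± 0.13 and C1qa at -0.09 ± 0.12 (-0.17 ± 0.12 without hypertensive replicate 4). Neither alternative route gene passed, with the factor D gene Cfd at 0.01 ± 0.38 and the properdin gene Cfp at -0.50 ± 0.19. The Cfd level of 5.34 in hypertensive replicate 4 was above those of the other 7 arrays, and the change without that array was -0.41 ± 0.17 (adjusted p = 0.18). Of the terminal components C6 alone was tested, at -0.29 ± 0.27 (-0.49 ± 0.25 without hypertensive replicate 4), while C8a and C9 were above background on no array. Of 9 regulators 1 fell, against the same 1.91%, with clusterin, Clu, at -0.06 ± 0.10. None of 7 receptors passed the limma threshold (1 had an unadjusted p under 0.05, against 20.3% of all tests). Among them C1qbp was at 0.18 ± 0.11 and Cd93 at 0.08 ± 0.12. The fit without hypertensive replicate 4 called 6% of all tests, with 620 of 24552 called lower. In it the count of genes that fell was 6 of 27, with Fcnb, Cfp, Itgb2 and Vtn, named after that result was seen, besides Fcna and Cd59b.

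**Figure D5:**
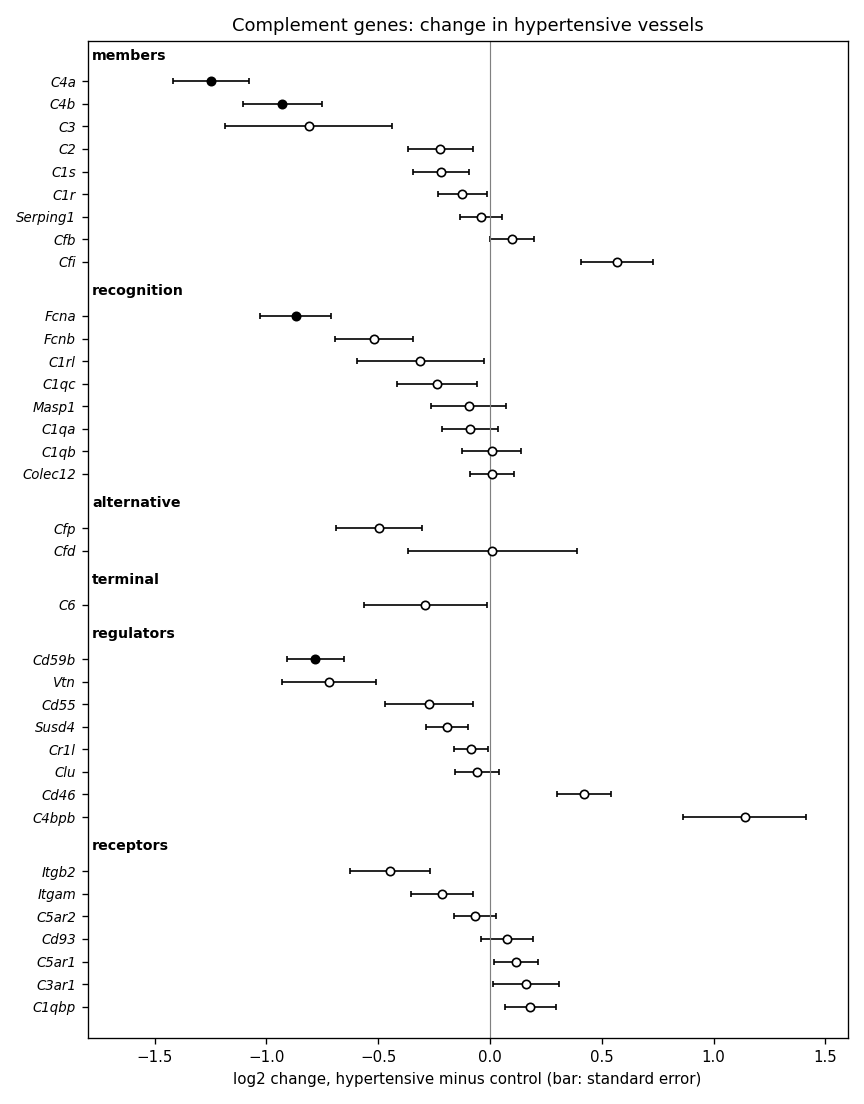
Change of tested complement genes (x axis, log2, hypertensive minus control, bars are standard errors of the limma fit), with the 9 members first and 26 of the other genes grouped by role below. Filled symbols passed the threshold, which were C4a, C4b, Fcna and Cd59b, all lower in hypertensive vessels.

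Signs of other cell types were read on marker lists. Like the other lists here, they were chosen with earlier results of these data known, so their counts are a description. Of 12 hepatocyte markers, 7 including albumin (Alb) were not well above background often enough to be tested, with Apoa2, Apoh, Fgb and Fgg above background on no array, and none of the other 5 passed the limma threshold (0 had an unadjusted p under 0.05), with the brightest, transferrin (Tf), at -0.12 ± 0.10. Of 9 macrophage markers Mrc1 fell (-0.51 ± 0.12, adjusted p = 0.0496), against 1.91% of all tests lower. That call held without hypertensive replicate 4 and was lost without any other single array (adjusted p of 0.080 to 0.12). Changes were below 0 for 7 of the 9, an unadjusted p under 0.05 was found for 5, against 20.3% of all tests, and separate groups for 3, against 13.6%. Among them, named after their values were seen, Cd163 was at -0.68 ± 0.17 (adjusted p = 0.060), Csf1r at -0.49 ± 0.12 (adjusted p = 0.056) and Adgre1 at -0.47 ± 0.15 (adjusted p = 0.12). Without hypertensive replicate 4 these 3 were called, with adjusted p of 0.039 for Cd163, 0.020 for Csf1r and 0.026 for Adgre1. The macrophage list mean was -0.28 to 0.16 in hypertensive and 0.04 to 0.22 in control arrays. The brightest macrophage marker, Lyz2, was at 0.53 ± 0.14 (adjusted p = 0.080), and was called without hypertensive replicate 3 (adjusted p = 0.033). None of 9 fibroblast markers passed the limma threshold (2 had an unadjusted p under 0.05, against 20.3% of all tests). Their changes were all below 0, from -0.95 (Col1a1) to -0.0062 (Dpep1), with a median of -0.28. The fibroblast list mean was -0.39 to 0.15 in hypertensive and 0.00 to 0.44 in control arrays. The brightest fibroblast marker, the collagen gene Col1a1, was at -0.95 ± 0.45. None of 11 white fat cell markers passed the limma threshold (0 under 0.05 unadjusted), with Fasn at 0.92 ± 0.42 (0.48 ± 0.24 without hypertensive replicate 4). None of 8 smooth muscle markers passed it (1 under 0.05 unadjusted, against 20.3%), with Myh11 at 0.08 ± 0.16. None of 7 endothelial markers passed it (3 under 0.05 unadjusted, against 20.3%). These 3, named after their values were seen, were Nos3 and Vwf, which were higher, and Cldn5, which was lower. Vwf was at 0.46 ± 0.17, and was called at 0.64 without hypertensive replicate 3 (adjusted p = 0.021). The endothelial list mean was 0.023 to 0.070 in hypertensive and -0.108 to 0.016 in control arrays, so the groups were separate by a narrow margin. Of 7 neutrophil markers with a probe, Elane, Ltf and Ngp were above background on no array, and S100a9, the 1 tested, was at -0.97 ± 0.63 (-0.23 ± 0.16 without hypertensive replicate 1). The part of these cell types in the C4 change was not tested.

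Of 12 genes that cytokines of the acute phase response use or induce, 3 fell, against 1.91% of all tests, and 1 rose, against 2.61%. An unadjusted p under 0.05 was found for 8 of the 12, against 20.3%, and separate groups for 5, against 13.6%. The mean of this list was also separate, at -0.39 to -0.047 in hypertensive and 0.0016 to 0.52 in control arrays. Socs3, which restrains cytokine signalling, fell by 1.71 (SE 0.26, adjusted p = 0.0085), Il1b, an interleukin gene, fell by 1.49 (SE 0.20, adjusted p = 0.0038) and the transcription factor gene Cebpd fell by 0.47 (SE 0.10, adjusted p = 0.036). Osmr, the oncostatin M receptor gene, rose by 0.98 ± 0.22 (adjusted p = 0.040). Its level was low, with means of -3.77 in hypertensive and -4.75 in control arrays. It was well above background on 4 hypertensive and 3 control arrays. Il6st, the brightest of the list, was at -0.06 ± 0.08. The Cebpd call held without hypertensive replicate 4 or control replicate 4, and that of Osmr without hypertensive replicate 4 or control replicate 1. Each was lost without any 1 of the other 6 arrays (adjusted p of 0.056 to 0.10 for Cebpd and 0.061 to 0.11 for Osmr). None of 16 interferon response genes passed the limma threshold, with 4 at an unadjusted p under 0.05, against 20.3% of all tests. The brightest of them, Mx2, was at 0.03 ± 0.10.

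The genes whose levels followed C4a most closely over the 8 arrays, among named genes outside the complement lists, were Phf11 (Pearson r = 0.99), Cryz (0.99), Exoc3l1 (0.98), Maea (0.98) and Stard6 (0.98). For C3 they were Havcr2 (0.97), Gpsm3 (0.96), Alas2 (0.96), Atf6b (0.96) and Aaas (0.96), of which Gpsm3 and Atf6b lie between C4a and C4b in the gene order. These correlations hold the group difference and the scaling of each array.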

How the data were processed

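Total RNA (100 ng) from vessels of 8 rats was labelled with Cy3 and hybridised to 1 slide of Agilent rat arrays, per the labels' protocols and the file headers. The hypertensive and control arrays lay in separate rows of that slide, so row and group cannot be told apart. The deposited scanner files hold intensity values that Feature Extraction had background-subtracted and processed (version 10.7.1.1 per the file headers, 12.1.1.1 per the submitters' processing notes). The deposited value table holds a linear ratio. For probes above 1 it was proportional to the processed intensity of the array to within 5%. The constant of proportion was not compared with the array's 75th percentile. The sources used here do not say how the value table was made, and it served as an alternative.

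Spots marked as outliers (213 to 396 of 58717 on an array) were dropped if the probe had others, the remaining spots of a probe were averaged as log2 values, and the 75th percentile was subtracted. No gene spot was saturated. Of 45598 probes, from 58.7% to 64.1% were well above background, depending on the array, and a probe was kept where it was so on at least 3 of 4 arrays of a group. Accessions named 21229 probes (46.6%) through RefSeq's table (GRCr8), matched without version. A gene was read by its brightest kept probe. Groups were compared with limma 3.58.1 in R 4.3.3 (lmFit and eBayes, all 8 arrays, group as the only term). On simulated arrays of 27822 probes the fit recovered 75 of 100 changes of 1 and 96 of 100 changes of 2 (log2), and called 9 unchanged probes. The simulated noise was drawn separately for each probe, so deviations that probes of an array share were left out. Nothing states separate housing or litters, so p-values measure the spread between these animals.

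The genes named are all members with their probes, other complement genes past the threshold and the 2 brightest of each role, and of each further list those past the threshold and the brightest; 1 gene that this rule names is not reported here. The members and lists were chosen with earlier results of these data known. The files have no mean signal column, so normexp used the median signal. Replicate numbers did not pair the arrays, with correlations of same-numbered deviations of 0.21, 0.12, -0.0035 and -0.15.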

Additional observations from a re-analysis of the deposited data

Results flagged for a closer look

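Serping1 in hypertensive replicate 3 was 7.41, below the other 3 hypertensive arrays (7.58 to 7.61), with a gap to the nearest of 0.83 of the group's range. Of the 22 groups of 4 arrays examined this way, chance alone gives about 1 in 20.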

How the results depend on the processing

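Every member kept the sign of its change under the 10 other settings and without any 1 array, except Serping1, whose change was -0.083 to 0.017 without 1 array, being 0.0050 without hypertensive replicate 3 and 0.017 without control replicate 2. The C4a call held under all of them, with adjusted p up to 0.017. The number of members called (2) was 1 without the filter on dim probes, where C4b had an adjusted p of 0.057, 3 with normexp (with Cfi), 3 with the adipocyte covariate (with C3) and 1 to 3 without 1 array. With the replicate block it was 2 (adjusted p = 0.010 for C4a and 0.044 for C4b). The number of other complement genes called was 2 in the main fit, where 4.53% of all tests were called. It was 4 with normexp (7.56% of all tests called), 5 with array weights (6.28%), 4 with the adipocyte covariate (5.25%) and 1 to 6 without 1 array (2.56% to 6%). Of these calls, 2 with normexp (C4bpb and Cd46) and 1 with array weights (C4bpb) were higher in hypertensive vessels. Cd46, named after that result was seen, was also called higher without hypertensive replicate 2 (adjusted p = 0.044), and C4bpb without control replicate 1. The other calls were lower. The number of all tests called (1111) was 1857 with normexp, 675 with the replicate block and 629 to 1473 without 1 array. Without the filter it was 641 of 41047 tests (1.56%). The split of 641 higher and 470 lower was 529 and 586 with quantile normalization and 422 and 652 with median centring. The cause of these shifts was not tested.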
